A study of Mus musculus with 14 samples.

Results

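The 10 diseased kidneys of a mouse model of collapsing glomerulopathy fell into 5 that held much RNA of S100a8, a calcium-binding protein gene of neutrophils, and 5 that held little. They were selected on the deposited S100a8 value: the S100a8-high kidneys are those above 1000 and the S100a8-low kidneys those below 1000, out of 14 kidneys in all. S100a8 and the other neutrophil genes therefore describe the sets and are no finding about them, and no test was run between the sets. What is described is which other genes were higher or lower where S100a8 was high.

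The profiles are bulk RNA sequencing of whole kidney. In the 5 i-TERTci mice given GSK2830371 and the 5 given its DMSO vehicle, an actin-rtTA transgene and a TetOp-TERTci transgene, each heterozygous, let doxycycline switch on a catalytically inactive telomerase reverse transcriptase in every tissue. GSK2830371 inhibits WIP1, the phosphatase encoded by Ppm1d, and was injected daily into the peritoneum once the mice were proteinuric. The 4 control mice carried actin-rtTA alone and drank doxycycline as well, for 30 days, with no injection recorded. The labels used here give adult mice, without age, strain background or sex.

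Neutrophils are short-lived phagocytes that leave the blood when chemokines of the CXC class and endothelial selectins direct them into injured tissue. They mature in bone marrow in stages, first filling primary granules (Mpo, Elane, Prtn3, Ctsg), then secondary granules (Ngp, Camp, Ltf), and late in maturation gaining the chemokine receptor Cxcr2 and the gelatinase Mmp9. Resident macrophages and dendritic cells of the kidney carry the fractalkine receptor Cx3cr1 and class II antigen presentation genes, and fibroblasts and mural cells lay down collagens and fibronectin. In bulk RNA, fewer cells of a type and less RNA per cell cannot be told apart.

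The S100a8-high set holds GSK2830371 mice 1 and 3 and DMSO mice 1, 3 and 4. The S100a8-low set holds GSK2830371 mice 2, 4 and 5 and DMSO mice 2 and 5. Values of a set are given in that order throughout. The deposited S100a8 values were 5348, 3762, 8763, 4596 and 2381 in the S100a8-high kidneys, against 168, 83.2, 663, 147 and 277 in the S100a8-low kidneys. The member just above the threshold is DMSO 4 with 2381, and the one just below is GSK2830371 5 with 663. The controls held 0 to 20.6.

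Each treatment is in both sets, and so are the days on doxycycline, which ran from 29 to 49 in the S100a8-high set and from 28 to 49 in the S100a8-low set. Sex was read from Xist, with more than 1000 normalised reads taken as female, and from the Y-linked gene Ddx3y. Of the S100a8-high kidneys 4 were Y-positive and 1, GSK2830371 3, was Xist-positive. Of the S100a8-low kidneys 1, GSK2830371 5, was Y-positive and 4 were Xist-positive, as were all 4 controls. Sex thus moves with the sets. The difference within the 5 Xist-positive kidneys (1 high, 4 low) and within the 5 Y-positive kidneys (4 high, 1 low) is given beside many results but not all. A result without these values is not thereby free of sex. Reads in genes were 47194888 to 48905815 in the S100a8-high libraries, 48064351 to 49422279 in the S100a8-low libraries and 48469086 to 64581825 in the controls. Mitochondrial genes took 7.34% to 9.52% of reads in the S100a8-high libraries and 4.95% to 8.78% in the S100a8-low libraries. The leading principal component of the 10 diseased libraries held 27.96% of the variance, and the sets nearly parted on it. On that component 4 S100a8-high kidneys lay from -84 to -6.02 and GSK2830371 3 at 19.2. The S100a8-low kidneys lay from 4.73 to 62.38, of which 1, GSK2830371 2, was below 19.2. Sex nearly parted on the component as well. Those 4 S100a8-high kidneys were all Y-positive, the Xist-positive kidneys lay from 4.73 to 62.38, and Y-positive GSK2830371 5 was at 20.56.

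Normalised reads are the whole reads recovered from the deposited values, divided by a size factor computed over all 14 libraries. A difference is that of mean log2(normalised reads + 1), S100a8-high minus S100a8-low, and is called the log2 difference. A gene was called apart where every S100a8-high library lay on 1 side of every S100a8-low library and the log2 difference was at least 1 in size. Outside the neutrophil list, the abundant genes that stood furthest above were Ifitm6, Cyp4a12a, Ly6c2, Fgfbp1 and Cd36. The promoter windows of 4 of them are shown so that the DNA around their RefSeq start sites can be read. Each runs from 250 bases before to 50 bases after the RefSeq start site, in build GRCm38.p6, on the minus strand, written 5′ to 3′. Capitals mark matches, on either strand, to motifs of 4 factors of myeloid and inflammatory genes: TTGCNNAA for C/EBP, GAGGAA for PU.1, GGGA with any 4 bases and then CC for NF-kB and TTCNNNGAA for STAT.
Ifitm6, chr7:141016843-141017142, within the annotated gene: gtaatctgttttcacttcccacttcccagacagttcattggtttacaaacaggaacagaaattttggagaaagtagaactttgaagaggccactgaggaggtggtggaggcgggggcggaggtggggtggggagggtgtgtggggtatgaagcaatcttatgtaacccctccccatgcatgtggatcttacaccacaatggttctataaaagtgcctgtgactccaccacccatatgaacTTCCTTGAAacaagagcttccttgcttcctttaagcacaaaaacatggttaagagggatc
Ly6c2, chr15:75111922-75112221, the first of 2 entries: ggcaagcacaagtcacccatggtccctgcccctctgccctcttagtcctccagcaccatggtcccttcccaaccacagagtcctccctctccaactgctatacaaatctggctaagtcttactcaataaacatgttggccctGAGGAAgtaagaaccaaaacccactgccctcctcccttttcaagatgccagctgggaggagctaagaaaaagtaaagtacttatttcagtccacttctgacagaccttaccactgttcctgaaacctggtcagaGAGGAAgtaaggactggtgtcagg
Fgfbp1, chr5:43981750-43982049: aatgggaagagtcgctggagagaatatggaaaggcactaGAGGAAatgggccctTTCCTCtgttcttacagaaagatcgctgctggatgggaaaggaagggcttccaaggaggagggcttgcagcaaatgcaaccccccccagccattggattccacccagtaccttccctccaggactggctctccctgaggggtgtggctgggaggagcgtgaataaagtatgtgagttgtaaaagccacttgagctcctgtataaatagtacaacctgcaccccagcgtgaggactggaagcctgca
Cd36, chr5:17835847-17836146, within the annotated gene: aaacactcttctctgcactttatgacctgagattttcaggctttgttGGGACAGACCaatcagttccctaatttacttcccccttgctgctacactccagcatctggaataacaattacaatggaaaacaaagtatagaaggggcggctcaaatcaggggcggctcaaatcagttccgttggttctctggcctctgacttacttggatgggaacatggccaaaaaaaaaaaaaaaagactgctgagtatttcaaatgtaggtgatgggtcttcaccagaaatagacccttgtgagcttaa
The Ifitm6 window holds 1 STAT match, the Ly6c2 window 2 PU.1 matches, the Fgfbp1 window 2 PU.1 matches and the Cd36 window 1 NF-kB match. Over 32851 promoter windows of the same length, 8.30% held the STAT motif, 28.3% the PU.1 motif, 20.7% the NF-kB motif and 10.8% the C/EBP motif. No match in these windows overlapped another. Nothing in the data bears on whether a factor binds there.

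Tert reads were above the control range in every diseased kidney. Tert had 355, 906, 1569, 2732 and 1515 normalised reads in the S100a8-high kidneys, 231, 2546, 1448, 1282 and 574 in the S100a8-low kidneys and 117, 183, 146 and 139 in the controls. The S100a8 sets overlapped for Tert, with a log2 difference of 0.35. Over all 10 i-TERTci kidneys against the 4 controls Tert rose by 2.82 on the log2 scale (SE 0.53, limma adjusted p = 0.000526). Ppm1d, the gene of the inhibitor's target, had 969, 560.0, 529.6, 621 and 552 normalised reads in the S100a8-high kidneys, 777, 607, 621, 512 and 529 in the S100a8-low kidneys and 871, 882, 932 and 920.5 in the controls. Its sets also overlapped, with a log2 difference of 0.06, and it fell by 0.55 (log2, SE 0.14, limma adjusted p = 0.00451) in all i-TERTci kidneys against controls.

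The label of the sets was checked against a list of 43 neutrophil genes, of which 42 were in both tables and 40 passed the low-count filter. Of those 40, 17 were called apart, all higher in the S100a8-high set, and the list median was a log2 difference of 2.41 beside 0.01 over all 18810 genes tested. The sets were made on S100a8, a gene of this list, so the count is a description, and the percentage of all genes apart, 0.409% on the higher side, is given beside it only for scale. S100a8 after joint scaling had 5274, 3776, 8848, 4698 and 2395 normalised reads in the S100a8-high kidneys and 167, 84.0, 667, 149 and 285 in the S100a8-low kidneys. Its partner S100a9, chosen after its values were seen, had 3914, 3012, 7760.2, 3053 and 2769 in the S100a8-high kidneys, against 144, 119.5, 527, 138 and 314 in the S100a8-low kidneys. The summed reads of 7 genes more restricted to neutrophils (Ly6g, Csf3r, Cxcr2, Retnlg, Mmp8, Il1r2 and Cd177, chosen after their values were seen) put the same 5 kidneys highest.

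The S100a8-low kidneys were not free of neutrophil RNA. S100a8 was at 84.0 to 667 normalised reads there, against 0 to 21.1 in the controls, and every S100a8-low kidney stood above every control. In all i-TERTci kidneys against controls 35 of the 40 list genes rose and 2 fell (limma, adjusted p below 0.05), where 27.8% of all genes rose and 25.4% fell. For S100a8 the sets are thus 2 levels of a signal that the controls nearly lacked.

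**Figure D1:**
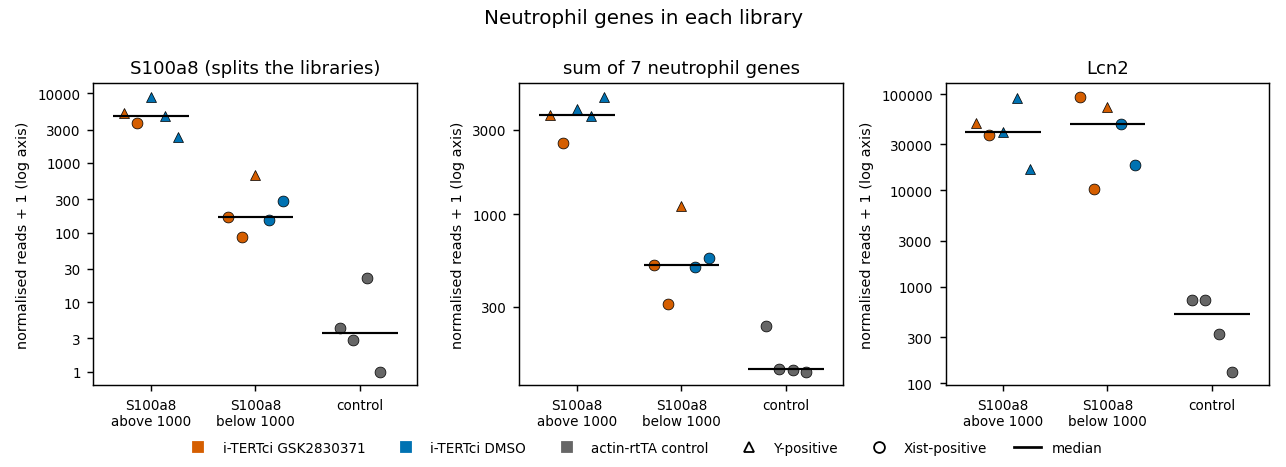
Normalised reads + 1 on a log axis for S100a8, the sum of 7 neutrophil genes and Lcn2 in each library (points), by set, with the set median as a line; colour gives treatment and shape the sex read from Xist. S100a8 and the 7-gene sum part the diseased sets, with GSK2830371 5 the highest of the S100a8-low kidneys, and Lcn2 does not part them while standing above every control in both.

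Not every gene of the list followed S100a8. Lcn2, which encodes the siderophore-binding protein NGAL and is made by injured tubule as well as by neutrophils, had 50654, 37182, 40754, 90727 and 16711 normalised reads in the S100a8-high kidneys, against 92904, 10341, 72987, 48820.2 and 18228 in the S100a8-low kidneys. The sets overlapped over nearly their whole range and every control was far lower, at 131 to 733. The log2 difference was 0.18, and the highest value of all 10 was in the S100a8-low kidney GSK2830371 2. Lcn2 took 39.2% to 89.2% of the summed reads of the list in the diseased libraries, and ranking the kidneys by that sum keeps 3 of the 5 in the upper set. Lrg1, an acute-phase glycoprotein of neutrophils and endothelium, had 6162, 2388, 17300.3, 11911 and 2282 in the S100a8-high kidneys, against 3699, 1019, 3264, 2672 and 630.3 in the S100a8-low kidneys. Its sets overlapped, with a log2 difference of 1.68. Hdc, the histamine-forming decarboxylase, had 203, 516, 216, 119.6 and 412 in the S100a8-high kidneys, 96.8, 2026, 96.8, 155 and 218 in the S100a8-low kidneys and 8550.1, 5546, 2698 and 9566 in the controls. Every control was above every diseased kidney for Hdc, the reverse of S100a8. Anxa1, annexin A1 of many cell types, had a log2 difference of 0.26.

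The S100a8-high kidneys differed among themselves in which granule genes they held. DMSO 4 had the lowest value of the set for 23 of the 40 list genes and the highest for 8. For the primary granule gene Mpo the 5 kidneys had 1582, 725, 629, 458 and 26.4 normalised reads, and for the secondary granule gene Ngp 5198, 3729.5, 7133, 3616 and 437, with DMSO 4, the last value of each series, lowest. For the chemokine receptor Cxcr2 they had 109, 152, 137, 171 and 575, and for the neutrophil collagenase Mmp8 431, 304, 291, 323 and 702, with DMSO 4 highest. Granulocyte colony-stimulating factor receptor (Csf3r) was also highest in DMSO 4, at 945, against 112 to 337 in the other 4; its sets overlapped. These 5 genes were chosen after their values were seen. In the S100a8-low set GSK2830371 5 was highest for 23 of the 40 genes. It had 637 for Ngp and 43.4 for Mpo, each above DMSO 4 of the S100a8-high set.

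Over all genes tested, 77 genes were apart and higher (0.409% of 18810 tested) and 117 apart and lower (0.622%) in the S100a8-high kidneys. Of the 77 higher genes 17 were on the neutrophil list. Counting only the absence of overlap, with no minimum size, 258 genes (1.37%) were higher and 277 (1.47%) lower. Of all genes tested 9544 had a positive log2 difference and 9262 a negative one. The rule used this contrast, so the counts are not read as evidence. At such shares most short lists hold no gene apart, so the absence of apart genes on a list is not read as a result. Over the 77 higher genes the control median lay below both sets' medians for 49, between them for 18 and above both for 10. Over the 117 lower genes it lay above both for 45, between them for 46 and below both for 26. These positions were not counted over all genes, and the 77 include the 17 neutrophil list genes. No result about the apart genes is therefore drawn from them.

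The 12 largest differences on the higher side, among genes with a median of at least 100 normalised reads in the higher set, began with Ifitm6 and Cyp4a12a. Ifitm6, an interferon-induced transmembrane family member of myeloid cells, had 295, 233, 439, 225 and 88.8 normalised reads in the S100a8-high kidneys, against 10.6, 6.06, 43.4, 7.33 and 18.2 in the S100a8-low kidneys. Every S100a8-high kidney was above every S100a8-low kidney, the log2 difference was 4.0, and it was 4.45 within the Xist-positive kidneys and 2.35 within the Y-positive ones. Ly6c2, part of the Ly-6C surface antigen of inflammatory monocytes, had 322, 236, 218, 242 and 159 in the S100a8-high kidneys, against 31.9, 48.5, 75.1, 81.6 and 87.8 in the S100a8-low kidneys. Its controls, at 362, 104, 67.2 and 57.7, spanned the S100a8-high range and reached into the S100a8-low range, and reads of Ly6c2 may be shared with its near-identical neighbour Ly6c1. Its log2 difference was 1.90 in all, 2.01 within the Xist-positive and 1.59 within the Y-positive kidneys.

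3 apart genes of low abundance stood on no list and were chosen after their values were seen. Ms4a3, a gene of granulocyte and monocyte progenitors, had 85.7, 29.6, 31.4, 17.6 and 1.06 normalised reads in the S100a8-high kidneys, against 0.968, 0, 0, 0 and 0.828 in the S100a8-low kidneys. DMSO 4 was again lowest in the S100a8-high set, at 1.06, which is 1 read before scaling. The S100a8-low values of 0.968 and 0.828 are 1 read each as well, so Ms4a3 is apart only through the scaling. Ceacam10 had 21.4, 47.3, 32.6, 36.1 and 14.8 in the S100a8-high kidneys, against 0.968, 0, 6.68, 3.67 and 4.14 in the S100a8-low kidneys. Trem3, a myeloid activating receptor of the mouse, had 21.4, 29.6, 55.6, 25.03 and 21.1 in the S100a8-high kidneys, against 6.77, 3.46, 4.17, 8.25 and 4.97 in the S100a8-low kidneys.

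Of 26 fatty acid oxidation genes tested 20 were positive and none was apart, with a list median of 0.38. Outside that list, Cd36, the fatty acid transporter and scavenger receptor of macrophages, endothelium and tubule, had 21801, 14761, 28507, 19154 and 26184 normalised reads in the S100a8-high kidneys, against 3896, 11339, 9295, 4518 and 6042 in the S100a8-low kidneys. The lowest S100a8-high kidney stood above the highest S100a8-low kidney, the controls held 3857 to 5403, and the log2 difference was 1.74 (1.32 Xist-positive, 1.35 Y-positive). Acot12, a cytosolic acetyl-CoA thioesterase, had 11768, 7246, 10134, 9758 and 8301 in the S100a8-high kidneys, against 4955, 1883, 3944, 3171 and 2061 in the S100a8-low kidneys. Psat1, the aminotransferase of serine synthesis, had 8011, 6827, 23295, 9548 and 6173 in the S100a8-high kidneys, against 4904, 3680.4, 2322, 3768 and 2226 in the S100a8-low kidneys. DMSO 1 was far above the rest for Psat1, and the S100a8-low kidneys overlapped the controls at 2433 to 2797. The log2 difference of Psat1 was 0.96 within the Xist-positive and 2.14 within the Y-positive kidneys. Ldhd (D-lactate dehydrogenase), Kyat1 (a kynurenine aminotransferase) and Ugt3a1 (a UDP-glycosyltransferase) had log2 differences of 1.42, 1.32 and 1.45. In that order they were 0.77, 0.80 and 2.19 within the Xist-positive kidneys and 1.25, 1.19 and 0.80 within the Y-positive ones.

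Fgfbp1, which carries fibroblast growth factors off the matrix, had 855, 665, 871, 468 and 887 normalised reads in the S100a8-high kidneys, against 276, 187, 295, 258 and 105 in the S100a8-low kidneys. Both sets stood above the controls at 25.3 to 76.2, and Fgfbp1 rose by 3.03 (log2, SE 0.53, limma adjusted p = 0.000278) over all i-TERTci kidneys. Chst7, a sulfotransferase of chondroitin chains, had a log2 difference of 1.69 (0.96 Xist-positive, 1.19 Y-positive). The membrane scaffold gene Mpp1 had one of 1.37 (0.97 Xist-positive, 1.99 Y-positive).

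Cyp4a12a, the fatty acid hydroxylase that androgens induce in mouse kidney, had the second largest difference, and sex goes with it. It had 3268, 1098, 12725, 2121 and 17442 normalised reads in the S100a8-high kidneys, against 911, 1055, 559, 426 and 622 in the S100a8-low kidneys. The only Xist-positive S100a8-high kidney was the lowest of its set, just above the highest S100a8-low kidney. The log2 difference was 2.71 in all, 3.48 within the Y-positive kidneys and 0.63 within the Xist-positive ones, and reads may be shared with Cyp4a12b. Slc7a13, a male-biased amino acid transporter of the straight proximal tubule, had 369.7, 2.96, 1415, 200.2 and 11502 in the S100a8-high kidneys, against 1.94, 6.06, 127, 2.75 and 5.80 in the S100a8-low kidneys, where the single Y-positive kidney was highest. The Xist-positive S100a8-high kidney was the lowest of its set and the sets overlapped, but every Y-positive diseased kidney was above every Xist-positive one.

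The 12 largest differences on the lower side began with Atp13a4, Cx3cr1 and Ciita. Atp13a4, a cation-transporting ATPase, had 18.03, 169, 4.84, 18.5 and 2.11 normalised reads in the S100a8-high kidneys, against 465.5, 242, 170.2, 727 and 260.1 in the S100a8-low kidneys. The sets touch, since the S100a8-high kidney GSK2830371 3 at 169 all but equals the S100a8-low kidney GSK2830371 5 at 170.2. The log2 difference was -4.32 in all, -1.18 within the Xist-positive and -4.24 within the Y-positive kidneys.

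Cx3cr1, the fractalkine receptor of resident macrophages, dendritic cells and patrolling monocytes, had 15.8, 56.2, 6.05, 67.7 and 57.1 normalised reads in the S100a8-high kidneys, against 94.8, 467, 191, 594 and 942 in the S100a8-low kidneys. The controls at 472, 341, 426 and 388 lay within the S100a8-low range, and every S100a8-high kidney was below every control. The log2 difference was -3.49 in all, -2.80 within the Xist-positive and -2.87 within the Y-positive kidneys. Gpr34, a lysophospholipid receptor of microglia and other resident macrophages, was chosen after its values were seen and had 0, 5.92, 1.21, 19.5 and 3.17 in the S100a8-high kidneys, against 31.0, 32.9, 42.6, 46.8 and 117 in the S100a8-low kidneys. The controls held 16.5 to 30.1, just below the S100a8-low range.

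Ciita, the transactivator that switches on class II genes, had 72.1, 82.8, 78.6, 121 and 63.4 normalised reads in the S100a8-high kidneys, against 207, 331, 367, 334 and 736 in the S100a8-low kidneys. The controls, at 256, 263, 179.5 and 157, were all above the S100a8-high kidneys. The log2 difference of -2.13 was -2.11 within the Xist-positive and -2.16 within the Y-positive kidneys. Irf4, a transcription factor of lymphocytes and dendritic cells, had 64.2, 25.6, 9.67, 45.4 and 38.1 in the S100a8-high kidneys, against 94.8, 299, 72.6, 138 and 108 in the S100a8-low kidneys. Tril, an accessory protein of Toll-like receptor 4, had 229.9, 337, 25.4, 297 and 104 in the S100a8-high kidneys, against 439, 580.2, 435, 747 and 626 in the S100a8-low kidneys. The log2 difference of Tril was -1.93 in all, -0.80 within the Xist-positive and -1.89 within the Y-positive kidneys. Tril fell in all i-TERTci kidneys against the controls, by 1.75 (log2, SE 0.67, limma adjusted p = 0.04).

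The other lower genes were of several kinds. Fndc1, a fibronectin type III domain protein, had 131, 67.0, 70.1, 171 and 71.9 normalised reads in the S100a8-high kidneys, against 316, 314, 377, 568.4 and 245 in the S100a8-low kidneys. Adam12, a metalloprotease of mesenchymal cells, had 242, 94.6, 71.3, 227 and 169 in the S100a8-high kidneys, against 336, 521, 384, 763 and 431 in the S100a8-low kidneys. For Fndc1 every S100a8-high kidney was below every control (266 to 429.6), while for Adam12 the controls (203 to 522) overlapped both sets. Gxylt2, which adds xylose to glucose on Notch repeats, had 261, 90.7, 178, 267 and 64.5 in the S100a8-high kidneys, against 1189, 315, 457, 756 and 618 in the S100a8-low kidneys, with controls at 59.2 to 169, below every S100a8-low kidney. The polysialyltransferase gene St8sia2 had a log2 difference of -1.93, the Ras GTPase-activating protein gene Rasal1 one of -1.81, Vwa7 one of -1.73 and Tchhl1 one of -1.64. Vwa7 rose in all i-TERTci kidneys by 1.66 (log2, SE 0.52, limma adjusted p = 0.0143).

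All 24 of these genes differed in the same direction within each sex, which the absence of overlap between the sets fixes in advance. At least 1 log2 unit within both sexes was reached by 10 of the 12 lower genes and 5 of the 12 higher ones. Over all apart genes the same held for 38 of the 77 higher and 56 of the 117 lower. Each of these within-sex differences rests on a single kidney on 1 side.

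**Figure D2:**
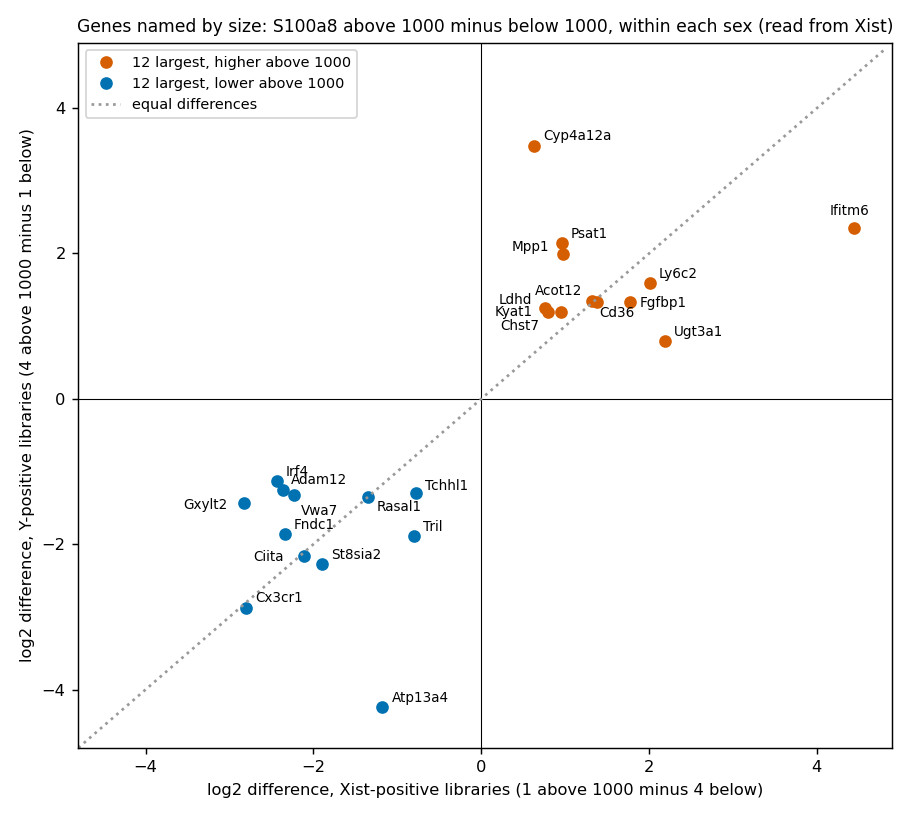
Log2 difference, S100a8-high minus S100a8-low, within the Xist-positive kidneys (x axis, 1 against 4 libraries) and within the Y-positive kidneys (y axis, 4 against 1) for the 24 genes named by size. All points lie in the quadrants of equal sign, which the absence of overlap between the sets fixes in advance. Cyp4a12a and Atp13a4 lie far from the line of equal differences, with the larger difference within the Y-positive kidneys.

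Mononuclear phagocyte and lymphocyte lists had negative medians. Over all genes tested 9262 of 18810 were negative, 0.622% were apart and lower and 0.409% apart and higher. Of 24 macrophage and dendritic cell genes tested, 19 had a negative log2 difference and 5 a positive one, with a median of -0.85; Cx3cr1 was apart and lower and Ly6c2 apart and higher. Adgre1, the F4/80 antigen, had 471, 248, 358, 593 and 101 normalised reads in the S100a8-high kidneys, against 466.5, 499.7, 744, 835 and 877 in the S100a8-low kidneys. Those sets overlapped through DMSO 3 and GSK2830371 1. Of 19 class II, T cell and natural killer genes tested, 18 were negative, with a median of -1.21, and 3 (Ciita, Cd3e and Trbc2) were apart. The list median was -1.46 within the Xist-positive and -1.08 within the Y-positive kidneys. T cell receptor chain Trbc2 had 12.4, 8.87, 6.05, 11.1 and 10.6 in the S100a8-high kidneys, against 12.6, 20.8, 26.7, 20.2 and 87.0 in the S100a8-low kidneys, and 25.9 to 115 in the controls; every S100a8-high kidney was below every control.

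Summed reads of the class II and lymphocyte list ran from 14991 to 42454 (median 25492) in the S100a8-high kidneys, from 32109.6 to 79071 (median 66109) in the S100a8-low kidneys and from 17190.5 to 43774 in the controls. None of the S100a8-high kidneys was above all controls and 2 were below all, whereas 4 of the 5 S100a8-low kidneys were above all controls. Gene by gene, the S100a8-high median was above the control median for 3 of the 19 genes, and the S100a8-low median for 7 of the 19. H2-Ab1, a class II beta chain chosen after its values were seen, had 9343, 3033, 5856, 6915 and 3035 in the S100a8-high kidneys, against 19649.8, 7442, 15285, 12885 and 17431 in the S100a8-low kidneys, and overlapped through GSK2830371 1. B and plasma cell genes had a list median of -0.50, with 9 of the 13 genes tested negative and none apart. Their summed reads ran the other way, from 12446 to 48389.6 (median 29903) in the S100a8-high kidneys and from 10711 to 17703 (median 13921) in the S100a8-low kidneys.

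All 22 interferon-response genes tested had negative differences, beside 9262 of all 18810 genes, and none was apart. The list median was -0.84, which was -1.33 within the Xist-positive and -0.33 within the Y-positive kidneys. Isg15, a ubiquitin-like interferon product, had 204, 96.6, 141, 181 and 397 normalised reads in the S100a8-high kidneys, against 198, 266, 232, 566 and 234 in the S100a8-low kidneys. Cxcl9, a T cell chemokine that interferon-gamma induces, had 12.4, 3.94, 6.05, 34.3 and 31.7 in the S100a8-high kidneys, against 26.1, 71.9, 10.0, 61.4 and 222 in the S100a8-low kidneys. Its log2 difference was -1.83 in all and 0.72 within the Y-positive kidneys. Outside the list, and chosen after their values were seen, Gbp6 and Ifit3b were apart, with log2 differences of -1.86 and -1.63; Ifit3b may share reads with Ifit3.

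**Figure D3:**
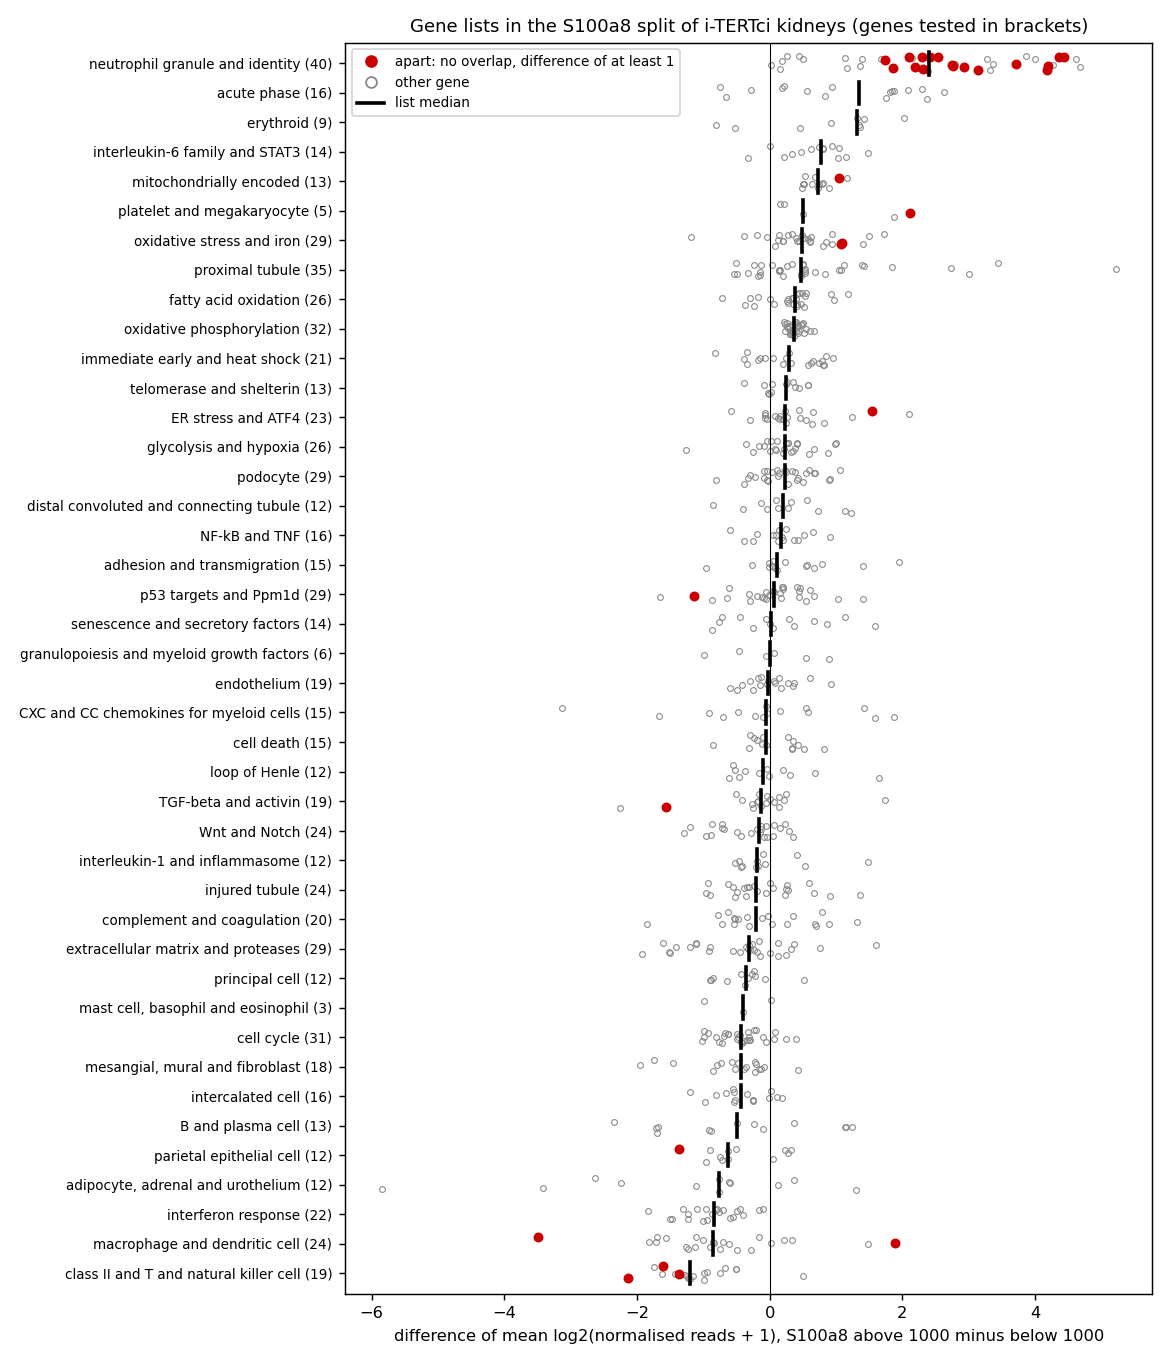
Log2 difference, S100a8-high minus S100a8-low, of each gene tested (points) in 42 gene lists, with the list median as a bar; filled points are genes called apart. The neutrophil list, which holds S100a8, lies furthest right, and the class II and lymphocyte, macrophage and interferon lists lie furthest left, with medians of -1.21, -0.85 and -0.84. The sex-linked list is not plotted.

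No gene of the matrix or mural lists was apart, beside 0.409% of all genes on the higher side and 0.622% on the lower. Most genes of these lists were lower in the S100a8-high kidneys. Col1a1, the fibrillar collagen of fibroblasts, had 16462, 4752, 3290.1, 13629.7 and 2679 normalised reads in the S100a8-high kidneys, against 37324, 14269.6, 29044, 47840.3 and 11120.1 in the S100a8-low kidneys, and 12827, 9689, 2291 and 7449 in the controls. GSK2830371 1 and DMSO 3 lay within the S100a8-low range, while the other S100a8-high kidneys were below it. The log2 difference was -1.95, with -2.28 within the Xist-positive and -2.12 within the Y-positive kidneys. Fn1, fibronectin, had 10938, 5517, 2685, 6536 and 4267 in the S100a8-high kidneys, against 23821, 10624, 16850.2, 21330.0 and 9267 in the S100a8-low kidneys. Mmp2, a gelatinase of mesenchymal cells, had 1451, 278, 236, 898 and 399.5 in the S100a8-high kidneys, against 3201, 997, 2530.2, 2283 and 1450.2 in the S100a8-low kidneys. Both overlapped through GSK2830371 1.

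Of 18 mesangial, mural and fibroblast genes tested 17 were negative, with a median of -0.43, and of 29 matrix and protease genes 21 were negative, with a median of -0.32; on each list the sets overlapped for every gene. Pdgfrb, the receptor that marks mural cells, had a log2 difference of -0.20. Genes of the same kind that were apart stood on other lists or on none and were chosen after their values were seen. Tgfb2, a transforming growth factor beta ligand, had 167, 147, 64.1, 112 and 243 in the S100a8-high kidneys, against 707, 274, 384, 465.7 and 288 in the S100a8-low kidneys. Cdh11, a cadherin of mesenchymal cells, had 488, 278, 229, 445 and 280.1 in the S100a8-high kidneys, against 655, 856, 872, 1100.1 and 922 in the S100a8-low kidneys. The controls held 189 to 794 for Tgfb2, overlapping both sets, and 370.0 to 651 for Cdh11, below every S100a8-low kidney. Mfap5 and Fbn2, of the elastic microfibril, had log2 differences of -1.76 and -1.65.

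**Figure D4:**
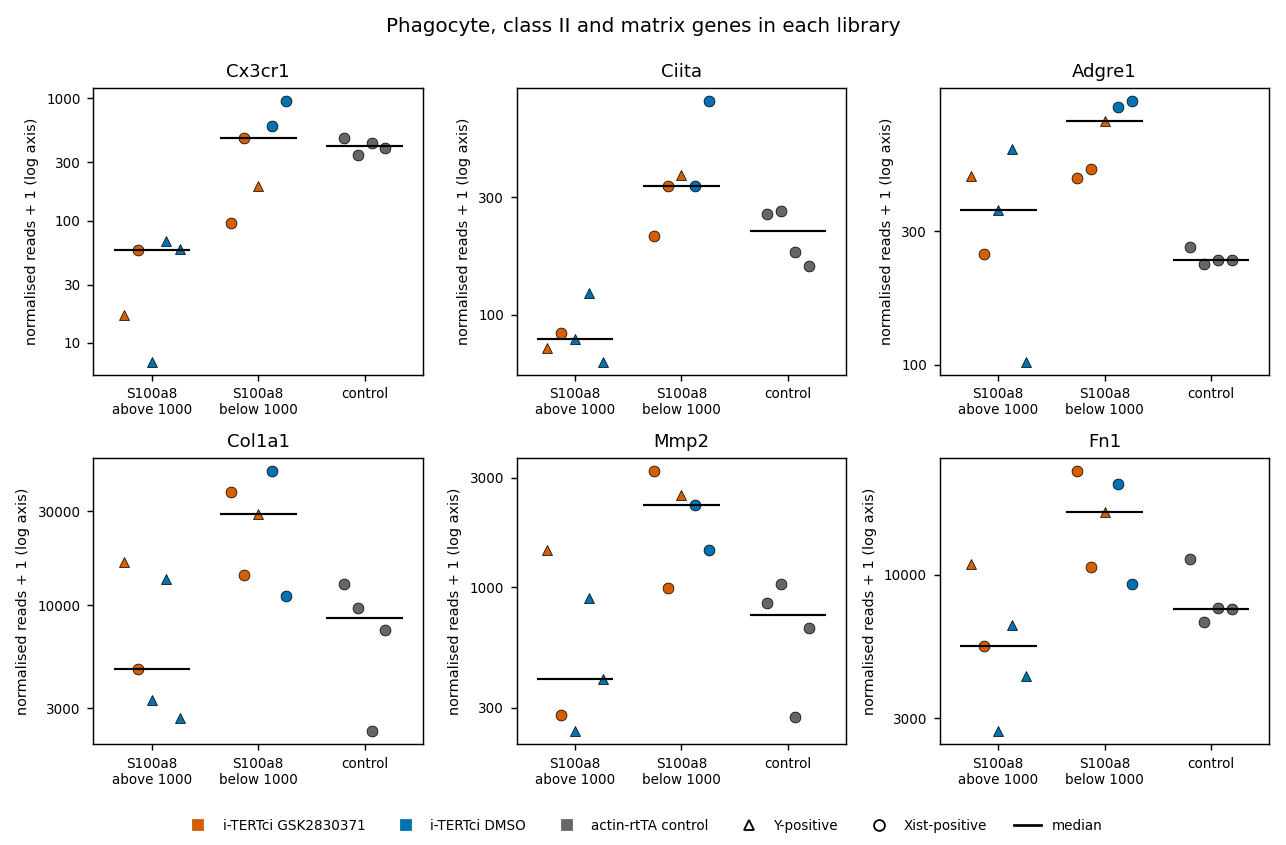
Normalised reads + 1 on a log axis in each library for Cx3cr1, Ciita, Adgre1, Col1a1, Mmp2 and Fn1, by set, with set medians as lines; colour gives treatment and shape the sex read from Xist. Cx3cr1 and Ciita part the diseased sets, while for the other 4 genes 1 or more S100a8-high kidneys, chiefly GSK2830371 1 and DMSO 3, lie within the S100a8-low range.

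No gene of the chemokine list was apart, beside 0.409% of all genes on the higher side and 0.622% on the lower. Cxcl1, a neutrophil chemokine, had 4410.2, 764, 15225, 5131 and 3288 normalised reads in the S100a8-high kidneys, against 2214, 856, 1088, 2762 and 629 in the S100a8-low kidneys. The 4 Y-positive S100a8-high kidneys were above every S100a8-low kidney, GSK2830371 3 was lower than all but 1 of the S100a8-low kidneys, and all 10 stood above the controls at 8.24 to 40.7. The log2 difference of 1.58 was -0.82 within the Xist-positive and 2.41 within the Y-positive kidneys. Of 15 chemokine genes tested 6 were positive and 9 negative, and the median was -0.05, with -1.41 within the Xist-positive and 0.22 within the Y-positive kidneys. Cxcl2, chosen after its values were seen, had 247, 13.8, 527, 352 and 558 in the S100a8-high kidneys, against 225, 134, 93.5, 248 and 79.5 in the S100a8-low kidneys. Its sets overlapped, with GSK2830371 3 again lowest. Ccl12, a monocyte chemokine of the mouse, had the largest difference of the list on the lower side, with 0, 1.97, 1.21, 0.927 and 8.46 in the S100a8-high kidneys, against 1.94, 42.4, 16.7, 38.5 and 69.6 in the S100a8-low kidneys.

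Sele, the endothelial selectin on which neutrophils roll, had 153, 70.0, 2173, 70.4 and 179 normalised reads in the S100a8-high kidneys, against 39.7, 76.2, 35.05, 33.9 and 87.0 in the S100a8-low kidneys. DMSO 1 alone was above 2000 and the sets overlapped, and none of 15 adhesion genes tested was apart. Il1b, the inflammasome cytokine, had 11.3, 27.6, 468, 83.4 and 314 in the S100a8-high kidneys, against 8.71, 29.4, 13.4, 44.0 and 137 in the S100a8-low kidneys. The highest values were in DMSO 1 and DMSO 4, and both GSK2830371 kidneys of the high set were within the S100a8-low range. By treatment Il1b differed by -3.13 (log2, GSK2830371 minus DMSO, SE 0.59), with an adjusted p of 0.994 by limma, 0.817 by edgeR and 1.48e-05 by DESeq2; over all alternatives the adjusted p ran from 1.48e-05 to 1. Il6, a cytokine of the acute-phase response, did not pass the low-count filter and was at 5.64, 0.986, 75.0, 6.49 and 308 in the S100a8-high kidneys, against 1.94, 8.66, 0.834, 3.67 and 3.31 in the S100a8-low kidneys.

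Acute-phase and STAT3 genes were mostly higher in the S100a8-high kidneys. Saa1, a serum amyloid, had 192, 24.6, 3594, 2119 and 47.6 normalised reads in the S100a8-high kidneys, against 282, 48.5, 132, 112 and 14.9 in the S100a8-low kidneys; its reads may be shared with Saa2. Only DMSO 1 and DMSO 3 stood above all S100a8-low kidneys. Of 16 acute-phase genes 13 were positive and none apart, with a median of 1.34 in all, 0.40 within the Xist-positive and 1.27 within the Y-positive kidneys. Within GSK2830371 kidneys the acute-phase median was 0.14 and within DMSO kidneys 2.26. Socs3, the feedback inhibitor of STAT3, had 3019, 1029, 7909, 2389 and 2406 in the S100a8-high kidneys, against 949, 928, 1103, 1366 and 615 in the S100a8-low kidneys. The 4 Y-positive S100a8-high kidneys were above every S100a8-low kidney and the Xist-positive one was not. Of 14 genes of the interleukin-6 family and STAT3 tested 12 were positive and none apart, with a median of 0.77 in all and 0.01 within the Xist-positive and 0.85 within the Y-positive kidneys. It was 0.31 within GSK2830371 kidneys and 1.11 within DMSO kidneys. The only Xist-positive S100a8-high kidney was given GSK2830371, and the differences between sexes and between treatments were not tested.

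**Figure D5:**
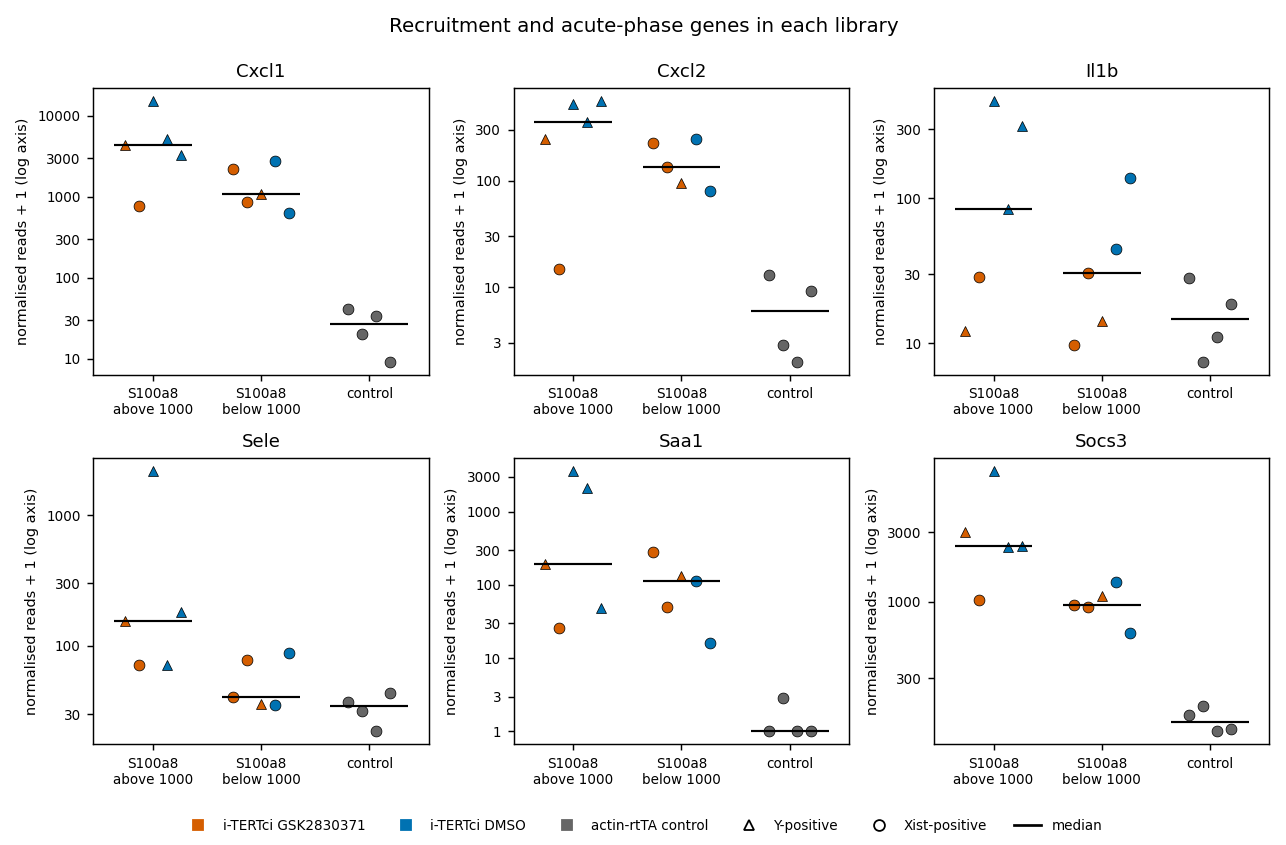
Normalised reads + 1 on a log axis in each library for the chemokines Cxcl1 and Cxcl2, the cytokine Il1b, the selectin Sele, the acute-phase gene Saa1 and Socs3, by set, with set medians as lines; colour gives treatment and shape the sex read from Xist. The diseased sets overlap in all 6 panels, and the Xist-positive S100a8-high kidney is the lowest of its set for Cxcl1, Cxcl2, Sele, Saa1 and Socs3.

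All 13 protein genes of the mitochondrial genome had positive differences, with a median of 0.73 (0.43 Xist-positive, 1.06 Y-positive). So had all 32 nuclear-encoded respiratory genes, with a median of 0.37 (0.30 Xist-positive, 0.60 Y-positive). Over all genes tested 9544 of 18810 were positive, and 0.409% were apart and higher. mt-Cytb, a subunit of complex III, was chosen after its values were seen as the only one of these apart, with 968413, 800453, 1935849, 841874 and 1136854 normalised reads in the S100a8-high kidneys, against 450319.9, 543154, 486637, 432701 and 741632 in the S100a8-low kidneys, and 1570854 to 3488801 in the controls. The controls were above every diseased kidney except DMSO 1, and the share of mitochondrial reads moves with the sets as given above; its part in these differences was not tested. The glutathione synthesis gene Gclc and the ferritin heavy chain gene Fth1, both chosen after their values were seen, were apart and higher. Fth1 had 137469, 125197, 208969, 181108 and 140544 in the S100a8-high kidneys, against 77965, 65779.6, 67149, 106443 and 61603 in the S100a8-low kidneys, with the controls at 162012 to 236559.7, above every S100a8-low kidney and overlapping the S100a8-high ones.

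No gene of the tubule segment or injured tubule lists was apart, beside 0.409% of all genes on the higher side and 0.622% on the lower. Of 35 proximal tubule genes 26 were positive, with a median of 0.48. Umod, the loop of Henle glycoprotein, had 360818, 256054, 652448, 298366 and 206141 normalised reads in the S100a8-high kidneys, against 150883, 250591, 311489, 192133 and 153787 in the S100a8-low kidneys, and Aqp2, the water channel of principal cells, had a log2 difference of -0.43. The principal cell list had a median of -0.35 with 11 of 12 genes negative, and the intercalated cell list one of -0.44 with 13 of 16 negative. The signs differed between the sexes, a difference that was not tested: the principal cell median was 0.13 within the Xist-positive and -0.70 within the Y-positive kidneys, and the intercalated cell median 0.47 within the Xist-positive and -1.01 within the Y-positive kidneys. Of 24 injured tubule genes 10 were positive and 14 negative, with a median of -0.21, which was -0.73 within the Xist-positive and 0.02 within the Y-positive kidneys. Havcr1, the injury molecule KIM-1, had 2832, 7848, 713, 1792 and 10307 in the S100a8-high kidneys, against 1939.5, 7091, 1138, 7309 and 1106 in the S100a8-low kidneys. The sets overlapped for Havcr1, with a log2 difference of 0.24 in all, 1.27 within the Xist-positive and 1.12 within the Y-positive kidneys. Every control was above every diseased kidney for Havcr1, at 14048 to 23147. All i-TERTci kidneys minus controls gave -2.59 for Havcr1 (log2, SE 0.68, limma adjusted p = 0.00573).

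Among glomerular genes 1 was apart, in the parietal list, beside 0.409% of all genes on the higher side and 0.622% on the lower. That count is not read as a result about the glomerular lists. Cldn1, the claudin of parietal epithelial cells, had 1366, 835, 412, 1075 and 1295 normalised reads in the S100a8-high kidneys, against 2152, 1917, 2753, 3384 and 1915 in the S100a8-low kidneys. The controls at 659 to 1051 lay within the S100a8-high range, and the log2 difference was -1.36, with -1.44 within the Xist-positive and -1.55 within the Y-positive kidneys. Of 12 parietal genes 8 were negative, and of 29 podocyte genes 19 were positive and none apart. Nphs1, the slit diaphragm protein nephrin, had 2468, 4082, 4849.8, 2044 and 2683 in the S100a8-high kidneys, against 923, 2355, 1078, 1172 and 2432 in the S100a8-low kidneys. Every S100a8-high kidney was above every control (1560.4 to 2038), and the sets overlapped because DMSO 3 was below GSK2830371 4 and DMSO 5. Nephrin had a log2 difference of 1.06, the largest of the podocyte list.

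Among p53 targets Phlda3, chosen after its values were seen, was apart and lower, with 296, 260.3, 109, 311 and 289 normalised reads in the S100a8-high kidneys, against 542, 792, 367, 666 and 383 in the S100a8-low kidneys. It was the only gene apart in the list of 29, beside 0.622% of all genes apart and lower, and the list median was 0.06. Cell cycle genes had a median of -0.43 in all, -1.46 within the Xist-positive and 0.32 within the Y-positive kidneys, so the direction differed by sex; that difference was not tested. Platelet genes were represented by Gp9, a subunit of the von Willebrand factor receptor, with 15.8, 16.8, 8.46, 9.27 and 143 in the S100a8-high kidneys, against 0.968, 3.46, 7.51, 3.67 and 6.63 in the S100a8-low kidneys. DMSO 4 was far above the rest. The erythroid list had a median of 1.32, 2.41 within the Xist-positive and -0.07 within the Y-positive kidneys, with Hbb-bs at 1527, 6539, 16536, 1356 and 5055 in the S100a8-high kidneys, against 1293, 2782, 3572, 118 and 5330.2 in the S100a8-low kidneys. The erythroid list median thus differs between the sets, and its part in the other differences was not tested. Cfd, an adipocyte gene, was at 0, 0, 1.21, 0 and 0 in the S100a8-high kidneys, against 106, 6578, 195, 0 and 9.11 in the S100a8-low kidneys.

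GSK2830371 and DMSO kidneys were compared over all 10 diseased kidneys, on groups the labels give. Days on doxycycline were 31, 49, 49, 49 and 28 in GSK2830371 mice 1 to 5 and 29, 29, 29, 38 and 31 in DMSO mice 1 to 5. GSK2830371 1 and 5 and DMSO 1, 3 and 4 were Y-positive. Treatment cannot be told apart fully from days or sex in these comparisons. S100a8 was lower with GSK2830371 than with DMSO by 0.90 in mean log2 (9.49 ± 2.64 against 10.4 ± 2.57, SD, n = 5 each), with an exact two-sided permutation p of 0.603, where 0.00794 is the smallest the design allows. The summed neutrophil list differed by 0.09 (15.96 ± 0.992 with GSK2830371 against 15.9 ± 1.004 with DMSO, SD, n = 5 each, exact permutation p = 0.889), and the sign turned when any 1 of 5 kidneys (DMSO 4 or 5, GSK2830371 1, 2 or 5) was left out, with values of -0.24 to -0.02. Across all 18810 genes limma called 0 (0%) higher and 0 (0%) lower with GSK2830371 at an adjusted p of 0.05, with 800 at an unadjusted p below 0.05. On the recovered reads edgeR called 0 (871 unadjusted) and DESeq2 1, Il1b, which was lower (1014 unadjusted). None of the 194 apart genes was called by limma, the smallest adjusted p among them being 0.994.

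Against the controls, which the rule did not use, 41 of the 77 higher genes rose in all i-TERTci kidneys (53.2%, where 27.8% of all genes rose) and 8 fell (10.4%, where 25.4% fell). Of the 117 lower genes 13 rose (11.1%) and 29 fell (24.8%). The genes were chosen for being high or low in 5 of the same 10 diseased kidneys, so these shares are not independent of the choice. Among the 24 genes named by size, Ifitm6, Cyp4a12a, Fgfbp1 and Cd36 rose on the higher side, and on the lower side Vwa7 rose and Tril fell. Cyp4a12a rose by 4.39 (log2, SE 0.85, limma adjusted p = 0.000774) with every control Xist-positive; with Xist as a covariate it rose by 3.31 (limma adjusted p = 0.00468). Cx3cr1 did not pass, at -1.98 (SE 1.10, limma adjusted p = 0.143), with all S100a8-high kidneys and 2 of the S100a8-low kidneys below the controls.

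Genes are placed on GRCm38 by GENCODE M21. Ifitm6 (ENSMUSG00000059108) is on chromosome 7 from 141015699 to 141017924, Cd36 (ENSMUSG00000002944) on chromosome 5 from 17781690 to 17888801, Cx3cr1 (ENSMUSG00000052336) on chromosome 9 from 119901616 to 120069879, Ciita (ENSMUSG00000022504) on chromosome 16 from 10480059 to 10528418 and Cldn1 (ENSMUSG00000022512) on chromosome 16 from 26356642 to 26371841. S100a8 (ENSMUSG00000056054) is on chromosome 3 from 90668978 to 90670035.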

How the data were processed

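Whole-kidney RNA of 14 mice was sequenced. Per the submitters' processing notes the authors used FastQC, Trimmomatic, STAR and DESeq2 with mm10; which counter, annotation and strand setting they used is not given in the sources used here. As for units, the deposited tables hold a signal per gene, which the authors made by scaling each library's reads with its own factor, done separately in 2 tables that share the 4 controls. Dividing by the worth of 1 read gave whole numbers for 100% of values (tolerance 0.001), and these recovered reads were used. The 23682 genes in both tables were used; 539 and 482 genes in 1 table only were left out.

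Reads were rescaled by median-of-ratios size factors over all 14 libraries, and filterByExpr kept 18810 genes. The S100a8 split was described without a test. Labelled groups (5 GSK2830371, 5 DMSO, 4 control) were tested with limma 3.58.1 (trend, robust) in R 4.3.3 on log2(reads + 1), two-sided, with Benjamini-Hochberg adjustment at 0.05. limma was used because the deposited values are scaled, with edgeR 4.0.16 and DESeq2 1.42.0 on recovered reads as alternatives. Single values were compared by exact permutation (scipy 1.17.1). Scripts were tested on simulated data. P-values measure the spread between these mice.

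Of 823 listed symbols in 43 lists 777 were tested. The sets, members and lists were chosen with earlier results of these data known. Named genes are S100a8, the 5 most abundant neutrophil list genes, Tert and Ppm1d; the 12 largest apart differences in each direction with a median of at least 100 normalised reads in the higher set, outside the neutrophil list, predicted genes, receptor segments and sex-linked genes; and from each other list its first gene and its largest difference. Promoters are RefSeq's, for the 4 largest of the 12 higher genes with an entry (11 have one). Other scalings, pseudocounts, filters, splits and left-out libraries were tried. Some of the genes this rule names are not reported here.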

Additional observations from a re-analysis of the deposited data

Results flagged for a closer look

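In each set of 5 kidneys a library was singled out where its gap to the nearest other, on the log2 scale, took most of the set's range. Of 198 gene and set pairs examined 16 met this, where chance alone gives about 1 in 20. Among the S100a8-high kidneys, Sele was highest in DMSO 1 at 2173 normalised reads, Cfd highest in DMSO 1 at 1.21, Saa3 highest in DMSO 3 at 2719 and Tpsb2 highest in DMSO 3 at 0.927. In the same set Gp9 was highest in DMSO 4 at 143, Rasal1 lowest in DMSO 4 at 27.5, Ppm1d highest in GSK2830371 1 at 969 and Ddx3y lowest in GSK2830371 3 at 0. Among the S100a8-low kidneys, Hdc was highest in GSK2830371 4 at 2026, Saa3 highest in GSK2830371 4 at 468 and Tpsb2 highest in GSK2830371 4 at 31.2. In that set Isg15 was highest in DMSO 2 at 566, Hba-a2 lowest in DMSO 2 at 0 and Dmrt2 highest in DMSO 5 at 387. The other 2 single out the only Y-positive S100a8-low kidney, GSK2830371 5, with Slc7a13 highest at 127 and Xist lowest at 11.7. The Cfd value of 1.21 in DMSO 1 and the Tpsb2 value of 0.927 in DMSO 3 are 1 read each before scaling. The other S100a8-high kidneys had 0 for both genes. Saa3 and Tpsb2 each singled out DMSO 3 in the S100a8-high set and GSK2830371 4 in the S100a8-low set. For Tpsb2 in DMSO 3 this rests on that 1 read.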

How the results depend on the processing

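The counts of genes apart, 77 higher and 117 lower, changed with the setting and with the kidneys used. A pseudocount of 10 gave 75 lower genes, and dropping the minimum size gave 258 higher and 277 lower. Within DMSO kidneys there were 503 higher and 1129 lower, within GSK2830371 kidneys 339 and 416, within Xist-positive kidneys 938 and 1027, and within Xist-negative kidneys 611 and 1154; fewer kidneys overlap less often. Splitting by the sum of the whole neutrophil list gave 49 higher and 80 lower, with 0 of the 77 and 0 of the 117 shared. The sum of 7 neutrophil genes gave the same sets as S100a8. Those 7 were chosen after their values were seen, from the list that holds S100a8, so they are no check of the split. Requiring at least 1 within each sex, chosen after seeing the data, left 38 and 56. Leaving out 1 kidney gave 74 to 150 higher and 117 to 261 lower. The higher count moved over 1.5 times without DMSO 4 (132), GSK2830371 3 (150) or GSK2830371 5 (130). The lower count did so without DMSO 3 (261), GSK2830371 1 (187), GSK2830371 2 (230), GSK2830371 3 (229) or GSK2830371 4 (204).

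Among the named genes called apart, splitting by the whole list turned the difference for Ugt3a1 (-0.30), Mpp1 (-0.0035), Gxylt2 (0.59), Vwa7 (0.46) and Gp9 (-0.78). The cause was not tested. With Xist as a covariate, Slc7a13 turned to -3.36 against controls (limma adjusted p = 0.0129). A split value of a named gene was counted as moved where it shifted by at least 1 SD of its S100a8-high log2 values. Turned signs were counted only for genes called apart, so another gene can turn and count as kept. Saa1, at 1.82 in all, was -1.46 within Xist-positive and -0.81 within GSK2830371 kidneys, with 1 of its values counted as moved. On this rule 1870 split values kept their place and 145 moved. For disease 2014 kept their call, 57 gained and 48 lost one. For treatment DESeq2 called 1 gene, Il1b, lower. The list sum by treatment, never past the threshold, ran from -0.24 to 0.52 when 1 kidney was left out and was negative without DMSO 4 (-0.07), DMSO 5 (-0.24), GSK2830371 1 (-0.05), GSK2830371 2 (-0.09) or GSK2830371 5 (-0.02).

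Whether replicate numbers pair the kidneys is not settled: same-numbered GSK2830371 and DMSO deviations correlated at 0.34, 0.27, -0.03, 0.04 and 0.13. The same-numbered GSK2830371 kidney was the closest to its DMSO kidney for replicates 1 and 2 but not for 3, 4 and 5. With the replicate block, 5415 genes rose and 5017 fell with disease and 0 changed with treatment. No paired analysis was made for the split, which was described without a test. Replicates 1 and 3 were S100a8-high in both treatments, and replicates 2 and 5 were S100a8-low in both. Only replicate 4 fell on both sides, so replicate number moves with the sets. With 5 kidneys a set, most of 1 sex, sex and S100a8 level cannot be separated fully, and genes of few reads move by counting alone.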
